A study of Mus musculus with 62 samples.

Results

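Slc2a1, Slc2a3, Slc2a4, Slc2a8 and Slc2a13 encode 5 transporters of the GLUT family, which carries sugars and related compounds, and their RNA was followed through a mouse study of the neuronal RNA-binding protein NOVA1. They were taken by symbol, 5 of the 23038 genes that every table lists. The set was chosen by measured values of these data, above all the higher Slc2a4 RNA in Nova1-deficient hypothalamus, which was known beforehand. The differences of Slc2a4 between genotypes in the brain regions are therefore given as a description, without a test. Their size and the gap between genotypes are not support for an effect, since the gene was chosen by such values. Genotype contrasts of the other members are descriptions too, and their adjusted p-values and calls are to be read as such.

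The study sequenced 62 polyA-selected RNA libraries in 15 groups, all on a BL6 strain background. Mice lacking Nova1 in inhibitory neurons, labelled cKO, were set against mice labelled cHet, a genotype that the labels do not spell out. At postnatal day 21 (P21), caudate putamen, substantia nigra, hypothalamus and periaqueductal gray gave 4 libraries of each genotype, and pituitary gave 3 of each. Ribosome-bound RNA from whole brain at P0, obtained by translating ribosome affinity purification (TRAP) to capture inhibitory neurons, gave 6 of each. Primary neurons of ventral diencephalon and mesencephalon from e13.5 embryos were infected on day 7 in vitro with a lentivirus carrying eGFP alone (WT), eGFP and Cre (Nova1 KO), or eGFP, Cre and the gene Impact (Nova1 KO + Impact), and were harvested on day 14, with 4 libraries each. All culture groups grew in medium with added insulin and glucose. The P21 libraries hold all cell types of their tissue, so the deletion concerns only some of the cells sampled. In such bulk tissue, more cells of a type and more RNA per cell cannot be told apart.

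Most GLUT proteins carry sugars across membranes down their gradient. In brain, GLUT1 (Slc2a1) moves glucose across the endothelium of the blood-brain barrier and into astrocytes, and GLUT3 (Slc2a3) is the high-affinity transporter of neurons. GLUT4 (Slc2a4) is best known from muscle and fat, where insulin drives its vesicles to the cell surface, and it is also present in some neurons. GLUT8 (Slc2a8) stays mostly on intracellular membranes, and HMIT (Slc2a13), unlike the others, couples the uptake of myo-inositol to protons.

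On the GRCm38.p6 assembly, Slc2a1 lies on chromosome 4 from 119108745 to 119137330 on the plus strand, and the other 4 lie on minus strands. Slc2a3 spans 122727809 to 122802363 on chromosome 6, and Slc2a4 spans 69942286 to 69948216 on chromosome 11. Slc2a8 spans 32972981 to 32982083 on chromosome 2, and Slc2a13 spans 91267691 to 91573261 on chromosome 15. The whole-gene tags counted here refer to exon lengths of 2572, 3557, 3087, 1666 and 6541 bases for Slc2a1, Slc2a3, Slc2a4, Slc2a8 and Slc2a13, so levels of different genes were compared only per kilobase of exon.

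Library totals ran from 2.24 to 29.5 M tags with a median of 19.2 M, and the 6 pituitary libraries were the shallowest, at 2.24 to 3.10 M. The ribosomal RNA precursor Rn45s took 0.472% to 40.8% of the tags and most in pituitary. A gene was called where its p, adjusted over all genes tested in edgeR's quasi-likelihood test, was below 0.05. Nova1 fell in cKO hypothalamus (log2 fold change -0.61 ± 0.11 SE), caudate putamen (-1.86 ± 0.14) and substantia nigra (-1.14 ± 0.13), in TRAP RNA (-3.03 ± 0.11) and in Nova1 KO neurons (-3.60 ± 0.08). In periaqueductal gray its difference was -0.30 ± 0.11 (adjusted p = 0.114), and in pituitary -0.85 ± 0.41 (adjusted p = 0.761), which did not pass. Replicate 1 of caudate putamen cKO carries the title of periaqueductal gray and the tissue label caudate putamen. It was kept as caudate putamen, where the summed level of 5 striatal projection neuron markers was 3309 to 3921 counts-per-million units (CPM) in the cKO libraries, against at most 80.2 CPM in any periaqueductal gray library. Dopaminergic markers summed to 3535 to 4903 CPM in substantia nigra and to at most 307.6 CPM in the 3 other regions, and hypothalamic peptide genes to 307.3 to 462.6 CPM in hypothalamus and at most 8.003 CPM in the 3 others.

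The 5 transporters made up most of the GLUT RNA in every group, but the leading gene changed with the tissue. Over the 12 Slc2a genes in the tables, each taken as CPM per kilobase, Slc2a1 held the largest share in control substantia nigra (51.5% ± 4.48, SD, n = 4) and control periaqueductal gray (42.7% ± 4.13). Slc2a3 led in cultured WT neurons (55.8% ± 1.70, n = 4) and in control TRAP RNA (65.9% ± 1.54, n = 6). In control pituitary Slc2a3 held only 8.46% ± 1.48 (n = 3), and Slc2a1 (31.3% ± 6.22) and Slc2a13 (31.2% ± 1.404) were level. Slc2a4 was a small part everywhere, from 0.432% ± 0.115 in control caudate putamen to 6.74% ± 2.01 in cKO substantia nigra.

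**Figure D1:**
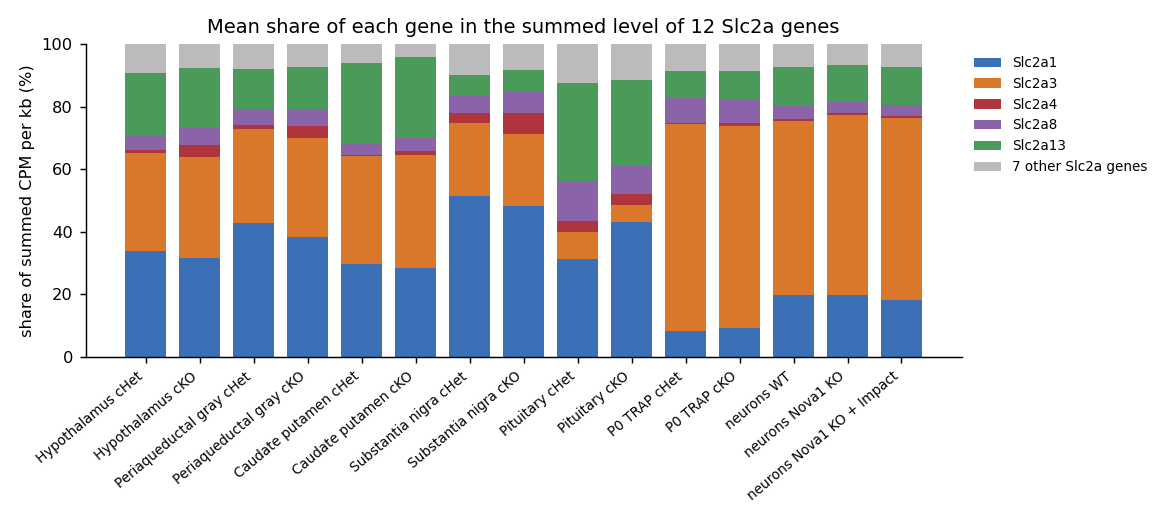
Share of each Slc2a gene in the summed CPM per kilobase of exon of 12 Slc2a genes, in percent, as the mean over the libraries of each of the 15 groups, with the 7 other Slc2a genes as 1 grey part. Slc2a1 takes the largest share in the 4 substantia nigra and periaqueductal gray groups, and Slc2a3 takes the largest part of the bar in the TRAP and neuron groups.

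Slc2a4 RNA was higher in cKO than in cHet in all 4 brain regions. In hypothalamus the cHet libraries held 4.03, 3.29, 3.72 and 2.72 CPM and the cKO libraries 14.4, 12.4, 10.4 and 8.22 CPM. Every cKO library lay above every cHet library. The fitted log2 fold change was 1.72 (SE 0.17), and the raw tags behind it were 53 to 94 in controls and 181 to 369 in cKO.

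In periaqueductal gray Slc2a4 stood at 3.42, 4.82, 4.11 and 4.96 CPM in cHet and at 16.6, 15.04, 11.3 and 11.5 CPM in cKO. In caudate putamen, the region with the least Slc2a4, the cHet values were 2.05, 1.19, 1.72 and 1.33 CPM and the cKO values 5.81, 5.09, 3.98 and 3.73 CPM. The groups did not overlap in either region. The log2 fold changes were 1.66 (SE 0.16) and 1.57 (SE 0.22). Without cKO replicate 1 of caudate putamen, the library with conflicting labels, the latter was 1.44.

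Substantia nigra had the most Slc2a4 in both genotypes, with 11.9, 10.7, 12.4 and 14.2 CPM in cHet and 33.9, 24.5, 23.5 and 18.1 CPM in cKO. These groups too were apart, although the spread within cKO was wider (SD 6.58 against 1.44 CPM). The log2 fold change was 1.04 (SE 0.16). Averaged over the 4 regions, the log2 fold change of Slc2a4 was 1.5 (SE 0.10), a fold of 2.82.

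**Figure D2:**
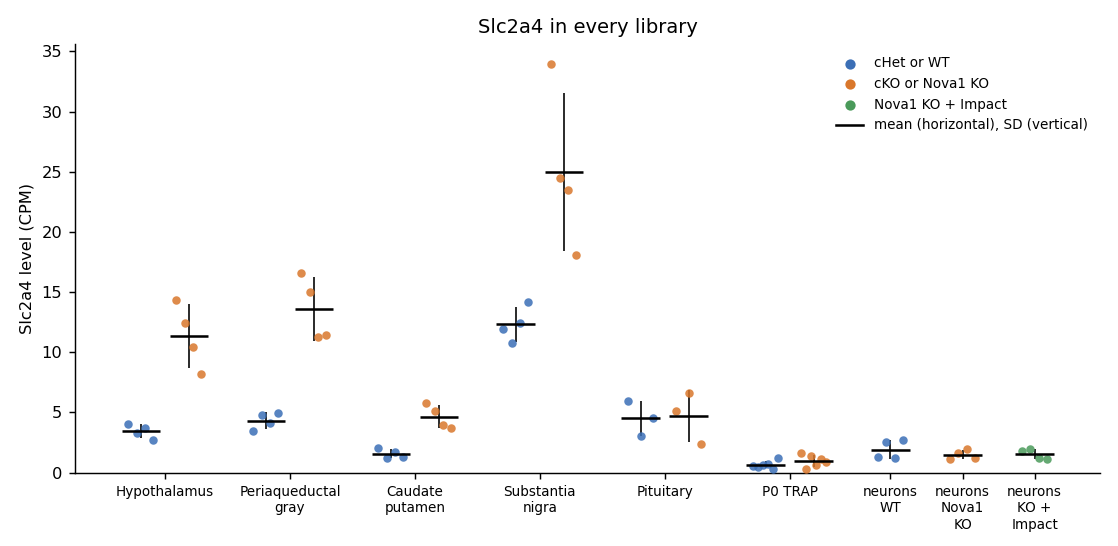
Slc2a4 level in CPM in each library, by group, with one point per library, a horizontal line at the group mean and a vertical line for the SD. In the 4 brain regions the cKO points lie above all cHet points of the same region, and the pituitary, TRAP and neuron groups overlap.

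Within the cKO libraries, Slc2a4 followed the replicate number. The library numbered 1 was the highest of the 4 in 4 of 4 regions and the library numbered 4 the lowest in 3 of 4. In cHet libraries no number was highest in more than 2 regions. The labels do not say whether a number marks the same mouse in the different regions. Over 10414 genes, the deviations of same-numbered cKO libraries of different regions correlated above 0.1 in 22 of 24 pairs (mean r = 0.228). The average over regions treats the 32 libraries as independent. With the tags of the 4 regions summed by number, a choice made after the data were seen, the log2 fold change of Slc2a4 was 1.3.

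In pituitary, Slc2a4 was at 5.96, 3.03 and 4.55 CPM in cHet and at 5.11, 6.59 and 2.35 CPM in cKO. The groups overlapped throughout, and the log2 fold change of 0.01 (SE 0.55, 95% interval -1.13 to 1.16, adjusted p = 0.999) leaves a wide interval at this depth. In TRAP RNA Slc2a4 was near the limit of detection, with 2 to 14 tags per library. Its lowest, median and highest levels were 0.297, 0.598 and 1.20 CPM in cHet and 0.283, 1.01 and 1.65 CPM in cKO, overlapping ranges, and the gene did not pass the filter on low counts. Without that filter its log2 fold change was 0.65 (SE 0.41, adjusted p = 0.762).

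In cultured neurons Slc2a4 was at 1.26, 2.52, 1.20 and 2.70 CPM in WT, at 1.15, 1.66, 1.97 and 1.21 CPM in Nova1 KO and at 1.78, 2.00, 1.21 and 1.18 CPM in Nova1 KO + Impact. All 3 groups overlapped. The difference of Nova1 KO from WT was -0.33 on the log2 scale without pairing (SE 0.30, 95% interval -0.97 to 0.31, adjusted p = 0.766). With the replicate number as a block it was -0.29 (adjusted p = 0.623). Cultures and P21 regions differ in age, cells and deletion, so their estimates were not compared. Nova1 KO + Impact differed from Nova1 KO by 0.02 (SE 0.31, adjusted p = 1) and from WT by -0.31 (SE 0.30, adjusted p = 0.894).

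Slc2a1, the transporter of the blood-brain barrier, did not pass the test for genotype in any region. Its levels were 89.9, 98.1, 72.6 and 99.3 CPM in cHet hypothalamus and 76.2, 91.9, 79.4 and 86.0 CPM in cKO, with overlapping ranges and a log2 fold change of -0.11 (SE 0.08, adjusted p = 0.432). Periaqueductal gray (-0.16, SE 0.09, adjusted p = 0.272) and substantia nigra (-0.15, SE 0.10, adjusted p = 0.367) had estimates of the same sign, and caudate putamen had 0.11 (SE 0.12, adjusted p = 0.634), or 0.21 (adjusted p = 0.254) without the library with conflicting labels. The average over regions was -0.08 (95% interval -0.20 to 0.04, adjusted p = 0.313). It was -0.17 (adjusted p = 0.0278) without the libraries numbered 3.

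Endothelial cells of brain vessels carry much of the Slc2a1 protein. Of all genes, 5.46% were called lower in substantia nigra, 6.42% in hypothalamus, 5.06% in caudate putamen and 5.4% in periaqueductal gray. Of 15 listed endothelial marker genes, such as the receptors Kdr and Tie1, 5, 6, 1 and 2 fell in these regions, in that order, and none rose. Their summed level was 262.5 to 293.2 CPM in cKO against 295.7 to 356.2 CPM in cHet hypothalamus, and 398.6 to 445.1 against 443.3 to 508.4 CPM in substantia nigra, where the genotypes overlapped slightly. They overlapped also in periaqueductal gray (281 to 325.8 against 316.3 to 394.4 CPM) and caudate putamen (343.4 to 444.2 against 417.6 to 518.2 CPM). No endothelial marker was at 0 in all libraries of a brain region group. The part of endothelial RNA in the Slc2a1 values was not tested.

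Slc2a1 also kept an order among libraries of different regions. In cKO the library numbered 2 was the highest and the library numbered 1 the lowest in 4 of 4 regions, and in cHet the library numbered 3 was the lowest in 4 of 4.

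In pituitary Slc2a1 was at 28.3, 31.5 and 39.2 CPM in cHet and at 46.9, 38.7 and 57.0 CPM in cKO. The ranges overlapped, and the cKO library was above the cHet library of its number in 3 of 3 pairs, a count not made over all genes. The log2 fold change was 0.52 (SE 0.22, 95% interval 0.07 to 0.98), which did not pass after adjustment over 12265 genes (adjusted p = 0.68). With the replicate number as a block it was 0.53 (adjusted p = 0.335). TRAP RNA held the least Slc2a1, 7.57 ± 1.19 CPM in cHet and 8.002 ± 2.32 CPM in cKO (SD, n = 6), a log2 fold change of 0.10 (SE 0.18, adjusted p = 0.929).

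Slc2a3, the neuronal transporter, was called higher in 1 of 4 regions, a call given as a description. In caudate putamen the cHet libraries were tightly grouped at 148, 143, 149 and 141 CPM, and the cKO libraries held 194, 185, 161 and 149 CPM. The lowest cKO library lay just under the highest control, so the ranges overlapped. The log2 fold change was 0.25 (SE 0.07, 95% interval 0.10 to 0.40, adjusted p = 0.0337), higher than every control in 3 of 4 cKO libraries. The call was lost in 6 of the 8 fits that each left out 1 library, with log2 fold changes of 0.19 to 0.32 and an adjusted p of up to 0.116. Without the library with conflicting labels, which was the highest of the cKO libraries, it was 0.19 (adjusted p = 0.0925). The 6 were cKO replicates 1 and 2 and each of the 4 cHet replicates.

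The other regions gave no call for Slc2a3. Means were 114 CPM in cHet and 119 CPM in cKO hypothalamus (0.07, adjusted p = 0.449), 119 and 124 CPM in periaqueductal gray (0.06, adjusted p = 0.6) and 104 and 98.4 CPM in substantia nigra (-0.07, adjusted p = 0.596). The test of a difference in genotype effect among regions did not pass for Slc2a3 (adjusted p = 0.414), so an effect particular to caudate putamen was not shown. The average over regions was 0.08 (SE 0.04, adjusted p = 0.0786), and it was 0.10 (adjusted p = 0.0467) without the libraries numbered 3.

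Pituitary had the least Slc2a3, at 14.4, 12.1 and 10.5 CPM in cHet and 7.89, 7.47 and 9.73 CPM in cKO. Every cKO library lay below every cHet library, at 17 to 29 against 20 to 30 tags per library. The share of all genes without overlap there was not counted. The log2 fold change of Slc2a3, -0.54 (SE 0.37, adjusted p = 0.841), did not pass. TRAP RNA held 82.9 ± 4.57 CPM in cHet and 78.7 ± 7.23 CPM in cKO (SD, n = 6), a log2 fold change of -0.06 (adjusted p = 0.862).

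Slc2a8, the intracellular transporter, varied least across the groups. In caudate putamen the cHet libraries held 8.18, 6.98, 8.05 and 6.60 CPM and the cKO libraries 10.1, 9.83, 9.03 and 8.30 CPM. The groups were apart there, which was not counted over all genes. The log2 fold change was 0.33 (SE 0.12, adjusted p = 0.0886), which did not pass. Without the library with conflicting labels it was 0.29 (adjusted p = 0.191). Elsewhere the estimates were 0.26 in hypothalamus (adjusted p = 0.223), 0.27 in substantia nigra (adjusted p = 0.175) and 0.08 in periaqueductal gray (adjusted p = 0.738), all with overlapping groups.

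Averaged over the 4 regions, the log2 fold change of Slc2a8 was 0.23 (SE 0.06, 95% interval 0.11 to 0.35, adjusted p = 0.00252), with a positive estimate in 4 of 4 regions. This is a description, since the set was chosen with results of these data known. The estimate was 0.16 (adjusted p = 0.0778) without the libraries numbered 1, which were the highest cKO libraries for Slc2a8 in 4 of 4 regions. With tags summed by number over the regions it was 0.22 (adjusted p = 0.0565).

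Slc2a13, the proton-coupled myo-inositol transporter, was highest in caudate putamen. There the cHet libraries held 199, 191, 213 and 187 CPM and the cKO libraries 265, 228, 199 and 214 CPM. The ranges overlapped, and the log2 fold change was 0.21 (SE 0.07, 95% interval 0.05 to 0.36, adjusted p = 0.0865). It passed without replicate 3 of cKO (0.26, adjusted p = 0.0307) and in no other fit that left out 1 library. Without the library with conflicting labels it was 0.12 (adjusted p = 0.242). Estimates in the other regions were -0.05 in hypothalamus (adjusted p = 0.558), 0.08 in periaqueductal gray (adjusted p = 0.536) and -0.01 in substantia nigra (adjusted p = 0.962). The average over regions was 0.05 (SE 0.05, adjusted p = 0.411), and it was 0.14 (adjusted p = 0.0174) without the libraries numbered 3.

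In pituitary Slc2a8 was at 9.44, 11.5 and 5.60 CPM in cHet and at 4.64, 8.35 and 6.04 CPM in cKO, and Slc2a13 was at 81.0, 94.0 and 77.3 CPM and at 75.2, 84.8 and 71.8 CPM. The genotypes overlapped for both genes, and Slc2a13 was lower in cKO in 3 of 3 same-numbered pairs, with log2 fold changes of -0.44 (SE 0.45, adjusted p = 0.907) and -0.12 (SE 0.17, adjusted p = 0.941). With the replicate block Slc2a13 was at -0.12 (adjusted p = 0.842). TRAP RNA had the lowest Slc2a13 of the study, with lowest, median and highest values of 17.3, 19.6 and 24.2 CPM in cHet and 17.5, 20.4 and 23.4 CPM in cKO (0.05, SE 0.11, adjusted p = 0.944). Slc2a8 ran there from 3.34 to 5.74 CPM around a median of 4.68 CPM in cHet and from 3.11 to 6.29 CPM around 3.90 CPM in cKO (-0.18, SE 0.18, adjusted p = 0.853). The ranges overlapped for both.

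Apart from Slc2a4, Slc2a3 was called higher in caudate putamen and Slc2a8 in the average over regions. The other members gave no further call there or in substantia nigra, hypothalamus and periaqueductal gray. Of all genes tested, 10.4% were called in caudate putamen (5.32% higher, 5.06% lower), 39% in the average (19.4% and 19.6%), 9.81% in substantia nigra (4.35% and 5.46%), 12% in hypothalamus (5.57% and 6.42%) and 9.73% in periaqueductal gray (4.33% and 5.4%). Slc2a4 is left out because it led to the choice of the set, and nothing is read from these calls. No member was called in pituitary, where 0.00815% of genes were, or in TRAP RNA, where 4 members were tested and 0.0307% of genes were called.

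**Figure D3:**
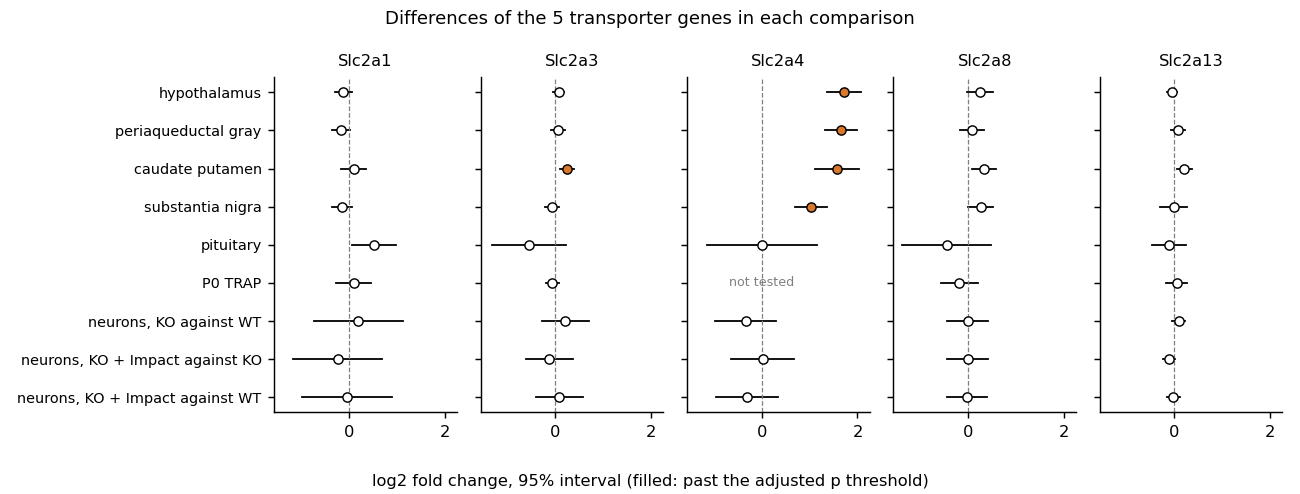
Fitted log2 fold change of each of the 5 genes in each genotype comparison, with 95% intervals, where filled points lie past the threshold of 0.05 on the adjusted p. Slc2a4 stands at 1.04 to 1.72 in the 4 brain regions, where its fill and intervals are not read as a test. The other genes lie between -0.16 and 0.33 there.

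Among the control regions, without any difference in genotype, all 5 genes varied. The test over the 4 cHet regions gave an adjusted p of 3.31e-06 for Slc2a1, 8.21e-08 for Slc2a3, 2.31e-12 for Slc2a4, 0.000519 for Slc2a8 and 3.1e-14 for Slc2a13. Regional difference was the rule, since 84.2% of 15660 genes passed the same test. Of 6 pairs of regions, 5 passed for Slc2a1, 5 for Slc2a3, 5 for Slc2a4, 3 for Slc2a8 and 6 for Slc2a13. Of all genes, 27.7% were called between periaqueductal gray and hypothalamus (13.3% higher in the former, 14.4% lower), 57.8% between caudate putamen and hypothalamus (28.9% and 29%) and 64.3% between substantia nigra and hypothalamus (29.4% and 35%). The shares were 61.5% between caudate putamen and periaqueductal gray (30.8% and 30.6%), 60.5% between substantia nigra and periaqueductal gray (28.2% and 32.3%) and 67.1% between substantia nigra and caudate putamen (33.1% and 34%).

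Per kilobase of exon, control levels across the 4 regions were 35.0 to 65.3 CPM for Slc2a1, 29.3 to 40.9 for Slc2a3, 8.44 to 30.2 for Slc2a13, 4.47 to 6.95 for Slc2a8 and 0.509 to 3.99 for Slc2a4, so Slc2a4 was the lowest of the 5 in each of them. The direction of the regional differences was opposite for different members. Slc2a4 was higher in substantia nigra than in caudate putamen by 2.86 on the log2 scale (SE 0.18, adjusted p = 9.93e-13), and Slc2a13 was lower by 1.93, as a log2 difference of -1.93 (SE 0.09, adjusted p = 8.03e-15). In that pair Slc2a1 was higher in substantia nigra by 0.80 (SE 0.12, adjusted p = 4.6e-06) and Slc2a8 by 0.54 (SE 0.11, adjusted p = 0.00018), and Slc2a3 differed by -0.58 (SE 0.06, adjusted p = 1.02e-08). The libraries of these regions did not overlap for any of the 5 genes. The share of all genes without overlap was not counted, and 67.1% of all genes were called in this pair.

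Hypothalamus and periaqueductal gray were closer to each other. Slc2a13 differed by -0.60 (SE 0.09, adjusted p = 1.49e-05) and Slc2a1 by 0.41 (SE 0.12, adjusted p = 0.0149), each as periaqueductal gray against hypothalamus. The latter was 0.39 (adjusted p = 0.0622) without the libraries numbered 2. Slc2a4 differed by 0.30 (95% interval -0.06 to 0.65, adjusted p = 0.219) and Slc2a3 by 0.04 (-0.09 to 0.16, adjusted p = 0.7), which did not pass. Against periaqueductal gray, caudate putamen had less Slc2a4 (-1.43, adjusted p = 5.61e-07), Slc2a1 (-0.41, adjusted p = 0.00614) and Slc2a8 (-0.34, adjusted p = 0.012) and more Slc2a13 (1.15, adjusted p = 8.85e-11) and Slc2a3 (0.31, adjusted p = 0.0001). Against the same region, substantia nigra had more Slc2a4 (1.43, adjusted p = 5.18e-08) and Slc2a1 (0.39, adjusted p = 0.00873) and less Slc2a13 (-0.78, adjusted p = 1.2e-07) and Slc2a3 (-0.27, adjusted p = 0.000487), and Slc2a8 did not pass (0.20, adjusted p = 0.129). The lower Slc2a3 of substantia nigra than of hypothalamus (-0.23, adjusted p = 0.00172) was -0.16 (adjusted p = 0.0786) without the libraries numbered 1.

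**Figure D4:**
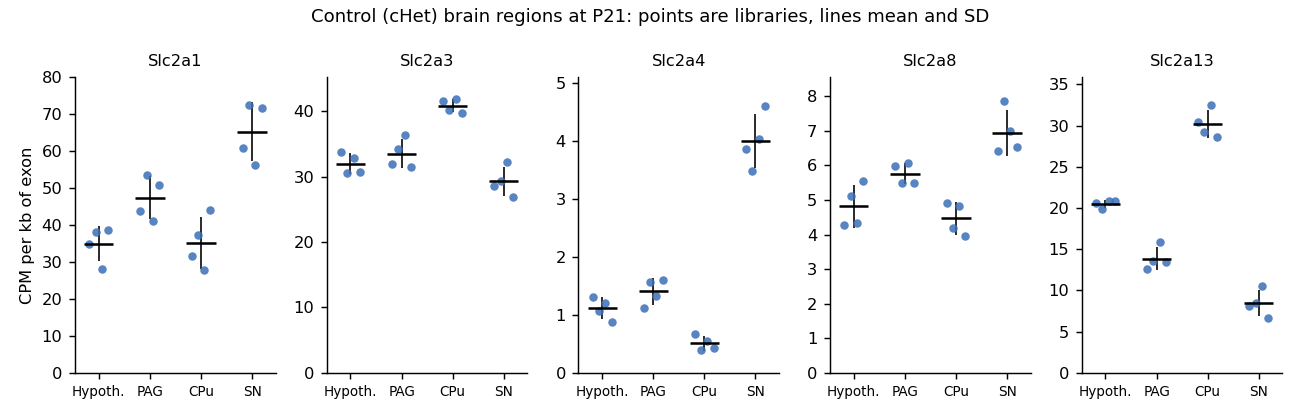
Level of the 5 genes in CPM per kilobase of exon in the 4 cHet libraries of hypothalamus (Hypoth.), periaqueductal gray (PAG), caudate putamen (CPu) and substantia nigra (SN), with one point per library, a horizontal line at the mean and a vertical line for the SD. Slc2a1 and Slc2a4 are highest in substantia nigra, and Slc2a3 and Slc2a13 are highest in caudate putamen and lowest in substantia nigra.

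Over all 15 groups, Slc2a4 had the widest range, with a fold of 38.1 between the mean of cKO substantia nigra (24.99 CPM) and that of cHet TRAP RNA (0.656 CPM). The latter rests on 3 to 11 tags per library, and the fold was 50.5 when CPM was scaled by plain totals. Age, method and tissue cannot be told apart in spans between P21 tissue and P0 TRAP RNA. Slc2a3 spanned 23.0-fold from Nova1 KO neurons to cKO pituitary, where it had 17 to 29 tags per library. Pituitary tables alone hold whole counts at low depth, so tissue and counting cannot be told apart in that span. Slc2a1 spanned 22.2-fold from cHet substantia nigra to cHet TRAP RNA, and Slc2a13 spanned 11.4-fold from cKO caudate putamen to cHet TRAP RNA. Slc2a8 spanned 3.35-fold, and in its order of groups all 14 neighbouring groups overlapped. For Slc2a4 the neighbours were apart at 3 of 14 steps, below cKO substantia nigra, below cKO hypothalamus and below cHet hypothalamus. The highest group of each gene was the same when CPM was scaled by plain totals or by totals without Rn45s, and the lowest was too except for Slc2a13, where plain totals put cKO TRAP RNA last.

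In cultured neurons none of the 5 genes passed in any of the 3 contrasts, which share groups, when libraries were not paired. Without pairing, 0.722% of all genes were called between Nova1 KO and WT (0.209% higher, 0.513% lower), 0.00674% between Nova1 KO + Impact and Nova1 KO, and 0.378% between Nova1 KO + Impact and WT. With the replicate number as a block, Slc2a3 passed in Nova1 KO against WT (0.20, adjusted p = 0.00198), and no other member passed in any contrast. Slc2a1 split by replicate number, with 25.4, 57.1, 26.4 and 67.6 CPM in WT, 28.8, 75.4, 25.2 and 73.0 CPM in Nova1 KO and 17.4, 69.6, 24.4 and 61.2 CPM in Nova1 KO + Impact. Numbers 2 and 4 were the high ones and numbers 1 and 3 the low ones in all 3 groups. The difference of Nova1 KO from WT was 0.20 without pairing (SE 0.44, 95% interval -0.73 to 1.14, adjusted p = 0.921). With the block it was 0.17 (adjusted p = 0.275).

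Slc2a3 showed the same split by number. It was at 130.5, 211, 121 and 203 CPM in WT, at 156, 262, 129 and 221 CPM in Nova1 KO and at 133, 234, 132 and 211 CPM in Nova1 KO + Impact. Each Nova1 KO library was above the WT library of the same number, in 4 of 4 pairs. The log2 difference was 0.21 (SE 0.23, adjusted p = 0.821) without pairing, and 0.20 with the replicate number as a block (adjusted p = 0.00198), a call that only the blocked fit gave. The block raised the number of all genes called in this contrast from 107 to 942.

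Slc2a13 was more even in culture, with 68.2, 67.1, 58.5 and 64.0 CPM in WT and 71.4, 72.8, 64.5 and 65.2 CPM in Nova1 KO. The ranges overlapped, although each Nova1 KO library was above the WT library of its number, in 4 of 4 pairs. The difference was 0.09 (SE 0.06, adjusted p = 0.634), and with the replicate number as a block it did not pass either (0.09, adjusted p = 0.221). Slc2a8 was at 5.30 ± 0.957 CPM in WT, 5.24 ± 0.518 in Nova1 KO and 5.22 ± 1.77 in Nova1 KO + Impact (SD, n = 4). Without pairing its differences from WT were -0.01 and -0.02 (adjusted p = 0.992 and 0.994). With the block they were -0.00 and -0.04 (adjusted p = 0.995 and 0.934). Endothelial markers were low in these cultures, at 39.2 to 53.9 CPM summed over 15 genes, and Cldn5 and Cdh5 were at 0 in every WT and Nova1 KO library.

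**Figure D5:**
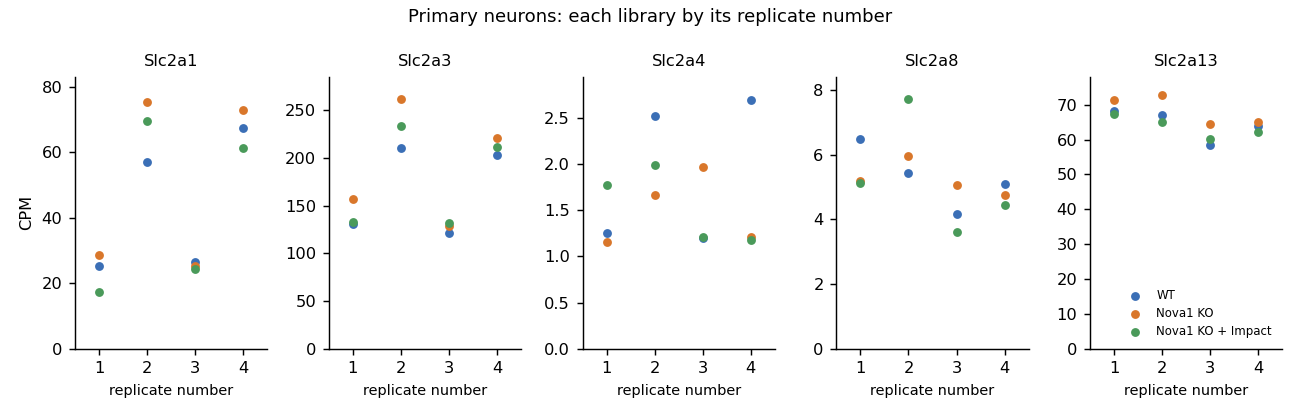
Level of the 5 genes in CPM in cultured neurons, by replicate number and group, with one point per library. Slc2a1 and Slc2a3 are high in numbers 2 and 4 and low in numbers 1 and 3 in all 3 groups.

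Of the 7 other Slc2a genes, 5 were abundant enough to test in the brain regions. Slc2a5, the fructose transporter that marks microglia in mouse brain, fell in 3 of them. Its means were 14.5 CPM in cHet and 7.97 CPM in cKO substantia nigra (-0.84, SE 0.15, adjusted p = 0.00424), 6.78 and 3.78 CPM in caudate putamen (-0.83, SE 0.15, adjusted p = 0.0027), and 4.39 and 2.82 CPM in hypothalamus (-0.64, SE 0.20, adjusted p = 0.0406). For periaqueductal gray they were 4.34 CPM in cHet and 3.02 CPM in cKO (adjusted p = 0.181). None of 7 listed microglia markers was called in any region or in the average, and their summed levels overlapped between genotypes, for example 917.6 to 1164 CPM in cKO and 1057 to 1177 CPM in cHet substantia nigra. By region 9.73% to 12% of all genes were called, and 39% in the average.

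In the average over regions Slc2a9, a urate transporter, rose (0.74, SE 0.22, adjusted p = 0.0079) with region means of 0.524 to 1.07 CPM in cHet and 1.08 to 1.58 CPM in cKO, and Slc2a6 fell (-0.22, SE 0.06, adjusted p = 0.00571). Slc2a2 and Slc2a7 stayed below 0.320 CPM in every brain region library and were not tested.

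GLUT4 sits in vesicles whose movement depends on a known set of proteins, and most of these genes were not called. Of 15 or 16 tested, 2 rose in caudate putamen, 2 rose and 1 fell in substantia nigra, 1 rose and 1 fell in hypothalamus, and 1 rose and 3 fell in periaqueductal gray. Of all genes, 10.4%, 9.81%, 12% and 9.73% were called in these regions. The list's median log2 fold change was -0.09 to -0.00, against a median of 0.00 over all genes. Stxbp3a, the syntaxin-binding partner at GLUT4 vesicle fusion, rose by 0.45 in substantia nigra, 0.37 in caudate putamen and 0.42 in periaqueductal gray. Aspscr1, which encodes the tether TUG, rose by 0.22 in hypothalamus and 0.24 in caudate putamen. Lnpep, the aminopeptidase that shares the vesicles with GLUT4, fell by 0.30 in hypothalamus, and the SNARE gene Stx4a fell by 0.31 in periaqueductal gray and 0.26 in substantia nigra.

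Genes of insulin receptor signalling were mixed as well. Of 21 or 22 tested, 1 to 2 rose and 1 to 2 fell in each region, and the median was -0.00 to 0.01. By region 9.73% to 12% of all genes were called. Irs4, an adaptor of the insulin receptor, rose by 0.26 in hypothalamus and by 0.81 in substantia nigra (SE 0.12, adjusted p = 0.00106). Akt2, the kinase isoform tied to GLUT4 movement in fat and muscle, fell by 0.39 in caudate putamen (adjusted p = 0.00128).

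Transcription factors described as acting on the Slc2a4 gene, mostly in muscle and fat, also gave calls of both signs. Of 14 or 15 tested, 1 rose and 1 fell in hypothalamus, 2 rose and 1 fell in periaqueductal gray, 3 rose and 1 fell in caudate putamen and 2 fell in substantia nigra. The shares of all genes called there were 12%, 9.73%, 10.4% and 9.81%. Hdac5, a repressor of MEF2 factors, fell everywhere but in caudate putamen, by 0.25 in substantia nigra, 0.19 in hypothalamus and 0.27 in periaqueductal gray. Mef2a rose by 0.30 in periaqueductal gray, and the thyroid hormone receptor gene Thra rose by 0.25 in hypothalamus and 0.36 in caudate putamen. Nr1h3, which encodes the sterol receptor LXR alpha, fell by 0.90 in substantia nigra.

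Markers of skeletal muscle and fat, the tissues with most GLUT4, were near 0 in brain. The 9 genes summed to 4.72 to 7.67 CPM in cKO and 4.52 to 5.79 CPM in cHet hypothalamus, and to 2.47 to 3.75 and 2.03 to 3.16 CPM in substantia nigra, all overlapping. Of 2 to 4 tested per region only Myh1, a muscle myosin, was called, in periaqueductal gray (1.72, SE 0.37, adjusted p = 0.00869). In that region 9.73% of all genes were called. The most specific fat genes were at 0 throughout some groups, Plin1 in cKO hypothalamus and Lep in both substantia nigra groups. The part of such tissue in the Slc2a4 values was not tested.

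Inhibitory neuron markers, 8 genes such as Gad1, summed to 1556 to 1606 CPM in cKO and 1416 to 1518 CPM in cHet hypothalamus, and to 2386 to 2433 and 2177 to 2364 CPM in substantia nigra. The ranges did not overlap in these regions, and they overlapped in periaqueductal gray and caudate putamen. These are sums, which follow their most abundant genes, and the share of all genes without overlap was not counted. Astrocyte markers were called in both directions, with Aqp4 lower in hypothalamus (-0.67), caudate putamen (-0.45) and periaqueductal gray (-0.36), and Slc1a3 higher in substantia nigra (0.30), hypothalamus (0.21) and periaqueductal gray (0.43). Mural cell markers gave 2 to 5 lower calls of 9 per region, each time with Rgs5, a pericyte gene. By region 5.06% to 6.42% of all genes were called lower. The part of these cell types in the values of the 5 transporters was not tested.

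Glycolysis, the pathway that uses the imported glucose, had lower calls only. Of 17 genes, 3 fell in substantia nigra, 4 in hypothalamus, 3 in caudate putamen and 4 in periaqueductal gray, with medians of -0.15 to -0.06. Of all genes, 5.46%, 6.42%, 5.06% and 5.4% were called lower in these regions. Pfkl, the liver-type subunit of phosphofructokinase, fell in every region, by 0.49, 0.39, 0.41 and 0.44 in that order. Aldoc, the aldolase of astrocytes and Purkinje cells, fell by 0.27 in hypothalamus and by 0.27 in periaqueductal gray.

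Other genes of myo-inositol supply moved while Slc2a13 did not pass. Of 5 tested, 1 fell in caudate putamen and 2 in each other region. Lower calls covered 5.06% to 6.42% of all genes per region. The sodium-coupled myo-inositol transporter Slc5a3 fell in all 4, by 0.38 to 0.60, and the synthase Isyna1 fell in substantia nigra (-0.47), hypothalamus (-0.61) and periaqueductal gray (-0.56). Of 10 genes of lactate and pyruvate transport and use, 3 fell in hypothalamus, among them Pdk4, which restrains pyruvate oxidation (-0.75, adjusted p = 0.00905), and none was called in the 3 other regions. Of 5 genes around the glucose-responsive repressor Txnip, Txnip itself rose in periaqueductal gray (0.40, adjusted p = 0.0333) and Mlx, the partner of its activators, fell in caudate putamen (-0.33, adjusted p = 0.0264).

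In cultured neurons 0 of the 16 GLUT4 vesicle genes, 0 of 22 insulin signalling genes, 0 of 17 glycolysis genes and 0 of 5 myo-inositol genes were called between Nova1 KO and WT. Only 0.722% of all genes were called in that unpaired fit, so nothing is read from these counts. The lists were not counted in the fit with the replicate number as a block. Among 7 other sugar transporters, Slc5a1, the sodium-coupled glucose transporter of gut, fell (-2.46, SE 0.43, adjusted p = 0.0134), with means of 0.777 CPM in WT and 0.135 CPM in Nova1 KO.

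The genes whose levels ran most like each member over the 15 group means were Kif1c, Itpr2 and Nxt2 for Slc2a1 (Pearson r = 0.99 each), Csmd3, Fry and Slitrk3 for Slc2a3 (0.99 each), and Sat2 (0.94), Uap1l1 (0.93) and Whamm (0.93) for Slc2a4. They were C920021L13Rik, Gm2a and Plekhf1 for Slc2a8 (0.97 each), and Rock2 (0.98), Tia1 and Lyst (0.96 each) for Slc2a13. These points share tissue, depth and scaling, and the median r over 16083 genes was 0.02 to 0.07.

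After the mean of each region and genotype was subtracted, the 32 brain region libraries gave other names. The closest to Slc2a1 were Tsc22d3 (0.90), Lbr (0.87) and Fam83d (0.83), and Cox4nb (0.80) and Cirbp (0.79) were among the 3 closest to Slc2a4. Tsc22d3 encodes the glucocorticoid-induced protein GILZ, and Cirbp an RNA-binding protein induced by cold. Slc2a3 was closest to Gopc (0.86), Dcun1d4 (0.85) and 6230409E13Rik (0.84), Slc2a8 to Pcif1 (0.82), Rapgef1 (0.77) and 2310021P13Rik (0.76), and Slc2a13 to Pja2 (0.91), Wdr7 and Dmxl2 (0.90 each). Libraries of one number may share a mouse here.

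The nearest annotated gene to Slc2a4 is Ybx2, a germ cell RNA-binding protein gene 682 bases away on the opposite strand. Ybx2 was at 0.592 to 1.03 CPM in the region groups and passed the test in none of them (adjusted p = 0.142 to 0.866), while Slc2a4 stood at 1.57 to 24.99 CPM. Garnl3, 4142 bases from Slc2a8, rose in all 4 regions (0.27, 0.29, 0.28 and 0.31, adjusted p = 0.0118, 0.0157, 0.0483 and 0.0112). Lrrk2, 99530 bases from Slc2a13, fell in caudate putamen (-0.47, SE 0.08, adjusted p = 0.00166). The sources used here do not state whether counting used strand or how reads with several matches were assigned. Annotated RNAs that the tables do not list overlap Slc2a1 (Gm52706 and Gm12867), Slc2a3 (Gm4482) and Slc2a13 (Gm15383 and Gm15381), and reads from these cannot be told apart from those of the transporters.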

How the data were processed

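RNA was extracted with Trizol and RNeasy and sequenced after polyA selection with TruSeq kits, per the labels' protocols. The deposited tables give a tag number per gene. In the 6 pituitary tables these are whole counts as the authors deposited them. In the 56 other deposited tables they are estimated counts, of which 4.56% to 18.8% of genes are not whole, and these were rounded. The build mm10 and edgeR are named per the submitters' processing notes. For the aligner and the counter, a name is not given in the sources used here.

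Genes were filtered (filterByExpr, minimum count 10, minimum total 15), scaled by TMM and tested with the quasi-likelihood test of edgeR 4.0.16 in R 4.3.3, with Benjamini-Hochberg adjustment over all genes tested and a threshold of 0.05. The cKO and cHet libraries of each tissue were fitted alone. The 3 culture groups shared 1 fit, as did the 32 brain region libraries for the average effect and the interaction, and the 16 cHet region libraries. The scripts were tested on simulated counts. Intervals on log2 fold changes cover 95%. Levels are CPM after 1 TMM scaling over all 62 libraries, so a fold of mean CPM can differ from the fitted one. Levels, shares and likeness were not tested, and likeness used log2 of CPM plus 1 over genes with a mean of at least 1 CPM in some group. How many of all genes have groups without overlap, or same-numbered pairs of the same sign, was not counted. Nothing is therefore read from such separations or pairs.

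All 5 members were eligible to be named in every comparison. From each list of pathway or marker genes up to 3 called genes with the smallest adjusted p were eligible to be named, and per member the 3 most similar genes and the nearest annotated genes. One similar gene is not reported here. Members and lists were chosen with earlier results of these data known. The labels do not say that replicates come from separate animals, so p-values measure the spread between these libraries. No pair of libraries within a group had like counts to within sampling noise.

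Replicate numbers were checked by correlating deviations from group means over genes. In neuron cultures all 12 same-numbered pairs exceeded 0.1 (r = 0.344 to 0.601), and in pituitary all 3 did (0.169 to 0.177), so there the numbers were taken to pair the libraries. In the other tissues they were not, although in periaqueductal gray 3 of 4 pairs exceeded 0.1 (mean r = 0.21, highest 0.359). There the block gave 2176 called genes, against 1458 without it. The main fits held no block in any tissue, cultures and pituitary included, and the paired fit was run as an alternative. Alternatives were no filter, DESeq2 size factors, DESeq2 1.42.0, the replicate number as a block, leaving out each library or number, other scalings of CPM, and summing of regions by number. RefSeq names matched 22959 of the gene IDs.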

Additional observations from a re-analysis of the deposited data

Results flagged for a closer look

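Among 65 sets of library values, 1 for each member in each group with 4 to 6 libraries, 3 held a library far from the others of its group. Chance alone would do this in about 1 set of 20. Slc2a1 in caudate putamen cKO replicate 1 was at 74.6 CPM, and the 3 other libraries were at 103 to 105 CPM. That library carries the title of another region. Slc2a1 was also lowest in the cKO library numbered 1 in the 3 other regions. Slc2a3 in TRAP cKO replicate 6 was at 92.4 CPM, and the next highest was at 78.6 CPM. Slc2a8 in TRAP cKO replicate 5 was at 6.29 CPM, and the next highest was at 4.04 CPM.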

How the results depend on the processing

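Over the alternatives run, the cKO against cHet log2 fold changes of Slc2a4, given as a description, were 1.59 to 1.85 in hypothalamus, 1.55 to 1.74 in periaqueductal gray, 1.44 to 1.72 in caudate putamen and 0.85 to 1.17 in substantia nigra, and of 1.3 to 1.60 in the average. The number of all genes called moved by over 1.5 times with DESeq2 in pituitary (1 to 5), TRAP (4 to 13), Nova1 KO against WT (107 to 320), Nova1 KO + Impact against Nova1 KO (1 to 8) and against WT (56 to 155), and the interaction (51 to 200). Without the filter, pituitary gave 75 and Nova1 KO + Impact against Nova1 KO gave 2. With the replicate block, pituitary gave 33, substantia nigra 889 (from 1457), the interaction 85, and the 3 neuron contrasts, in the order above, 942, 27 and 503. The cause was not tested. The block changed the call of 1 member, Slc2a3 in Nova1 KO against WT.

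Leaving out 1 library or number gave 1060 to 2058 called genes in hypothalamus (1823 with all), 764 to 1520 in periaqueductal gray (1458), 826 to 1939 in caudate putamen (1559), 705 to 1483 in substantia nigra, 0 to 9 in pituitary, 4 to 5 in TRAP, 46 to 103, 1 to 3 and 22 to 50 in the neuron contrasts, 4581 to 5888 in the average (6256), 2 to 27 in the interaction and 12232 to 12816 among control regions (13183).

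Some estimates that had not passed changed sign. The largest were those of Slc2a1 in neurons, -0.23 for Nova1 KO + Impact against Nova1 KO and 0.20 for Nova1 KO against WT. Slc2a4 in pituitary was -0.05 with the block and -0.32 to 0.37 with a library left out. Slc2a1 in control caudate putamen against hypothalamus was 0.04 without the filter, 0.00 with DESeq2 size factors and 0.00 with DESeq2, and -0.08 to 0.05 with a number left out. The same omission gave -0.21 to 0.01 for Slc2a8 in that pair, -0.10 to 0.09 for Slc2a13 in substantia nigra, and, for Nova1 KO against WT, -0.06 to 0.48 for Slc2a1 and -0.11 to 0.10 for Slc2a8. For Nova1 KO + Impact against Nova1 KO it gave -0.57 to 0.03 (Slc2a1), -0.28 to 0.07 (Slc2a3), -0.13 to 0.18 (Slc2a4) and -0.27 to 0.14 (Slc2a8), and against WT -0.36 to 0.25 (Slc2a1), -0.07 to 0.23 (Slc2a3), -0.28 to 0.13 (Slc2a8) and -0.06 to 0.01 (Slc2a13). Relative to TMM, plain totals shifted the median gene by -0.36 to 0.18 (log2) by group. Pituitary depth and TRAP tags limit what Slc2a4 can show there.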

Other observations

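Nova1 itself was lowest in the cKO library numbered 4 in all 4 brain regions, at 45.5 CPM in hypothalamus, 99.5 CPM in periaqueductal gray, 8.10 CPM in caudate putamen and 24.9 CPM in substantia nigra. Slc2a4 was lowest in that library in 3 of the 4 regions.

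Slc2a9 in pituitary was at 1.49 to 2.45 CPM in the 3 cHet libraries and at 3.36 to 11.6 CPM in the 3 cKO libraries, without overlap. It had only 3 to 7 tags per cHet library and 10 to 25 per cKO library. It did not pass the filter on low counts and was not tested. Slc2a12 in cultured neurons was at 2.60 to 3.72 CPM in WT and at 1.89 to 2.35 CPM in Nova1 KO, also without overlap. In the unpaired fit it did not pass after adjustment (-0.62, SE 0.16, adjusted p = 0.107). The share of all genes without overlap was not counted in either comparison, so nothing is read from these separations.

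Erythroid genes gave lower calls in each brain region, 2, 4, 2 and 3 of 4 tested in substantia nigra, hypothalamus, caudate putamen and periaqueductal gray. Of all genes, 5.46%, 6.42%, 5.06% and 5.4% were called lower there. Hbb-b1, a beta globin gene, fell by 0.76, 0.71, 0.67 and 0.74 on the log2 scale in that order. Oligodendrocyte markers gave 2, 4, 2 and 2 lower calls of 8, with Ugt8a and Mobp among them in every region.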
